A study of Rattus norvegicus with 44 samples.

Results

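Leukaemia inhibitory factor (LIF) was 1 of the growth factors added to neonatal rat ovaries in this study, and the data described here are the 3 arrays of LIF-treated ovaries set against the 14 untreated Control arrays that were preprocessed with them. These 17 arrays were taken by their sample titles from a set of 38 arrays, within a series of 44. The other 21 arrays of the set held ovaries treated with 1 of 7 other growth factors (AMH, BMP4, FGF2, FGF7, GDNF, KITLG and PDGFab, 3 arrays each) and served here to show where LIF differed and, in the fit of all 38 arrays, to estimate the spread between samples. All samples were whole ovaries of female Sprague-Dawley rats taken at postnatal day 4, an age at which primordial follicles begin to develop, and kept in organ culture for 48 h. The LIF samples received rat LIF at 50 ng/ml, and the Control samples received no growth factor. A sample pooled the 2 or 3 ovaries of one culture well, from different pups of one litter, so each value is a mean over several animals and over all cell types of the ovary. On each culture day there were untreated ovaries and 1 to 3 growth factors, but the labels do not give the day of any sample.

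LIF is a cytokine of the interleukin-6 family. It binds the LIF receptor, Lifr, which pairs with the shared chain gp130 (Il6st), and the receptor-bound Janus kinases then phosphorylate the transcription factor Stat3. Stat3 raises many genes, among them Socs3, which feeds back to switch the receptor off, and in liver it drives the acute-phase proteins. In the ovary, LIF is known as a factor of the somatic cells that promotes the transition of primordial follicles to the primary stage.

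The arrays hold 27342 probe sets, and 15097 of them could be named by a single gene symbol. Array medians lay between 5.93 and 6.01 on the log2 scale, and the LIF arrays correlated with each other at 0.987 to 0.994 over all probe sets, within the 0.970 to 0.996 seen between Control arrays. The markers of the ovary were present in the LIF samples, with mean log2 levels of 11.28 for Zp3, 9.62 for Gdf9 and 8.44 for Ddx4, which are genes of oocytes. LIF sample 1 stood apart in its cell markers. The mean log2 level of 4 macrophage markers (Cd68, Csf1r, Adgre1 and Aif1) was 7.90 in LIF sample 1, 6.78 in sample 2 and 6.42 in sample 3, against 6.02 to 7.61 in the Control samples, so that only sample 1 lay above the Control range. The mean of 4 oocyte markers was 8.44, 9.64 and 9.72 in the same order, against 7.89 to 9.96 in the Control samples. Because sample 1 was also the highest of the 3 LIF samples for many of the genes below, the adjusted p without it is given for those genes whose change from the Controls is given in a sentence and whose call it ended. In RNA from whole ovaries, fewer cells of a type and less RNA per cell cannot be told apart.

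LIF raised more probe sets than it lowered, by a margin that turned on the fit. By limma with Benjamini-Hochberg adjustment over all probe sets, 73 probe sets changed at an adjusted p under 0.05, which is 0.267% of those tested, and 1983 (7.25%) had an unadjusted p under 0.05. Of the 73, 70 (0.256%) were higher with LIF, 54 of them with 1 gene symbol, and 3 (0.011%) were lower. The median log2 change of the 70 was 0.74 and 18 of them rose by 1 log2 unit or more. In 43 of the 70 all 3 LIF samples lay above the highest of the 14 Control samples, a pattern that 97 probe sets (0.355%) showed over the whole array. The 54 named genes included secreted lectins of the Reg family, the receptor chains Lifr and Osmr, the feedback gene Socs3, acute-phase proteins, both kininogens and several receptors of the tumour necrosis factor family. Without LIF sample 1 the number of changed probe sets was 19, without sample 2 it was 28 and without sample 3 it was 76, and 13 calls held whichever of the 3 was left out. The count also turned on the fit, with 31 probe sets in the 17 LIF and Control arrays alone, 40 with a replicate block, 19 and 42 by the methods' t-test on log2 and linear values after the same adjustment, and 240 with array weights. Array weights gave 183 higher and 57 lower, and repeated quantile normalization gave 78 higher and 10 lower. The p-values measure the spread between samples that the labels call biological replicates. No detection call was used, and 10 of the 70 had a Control mean among the lowest 25% of all probe sets.

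**Figure D1:**
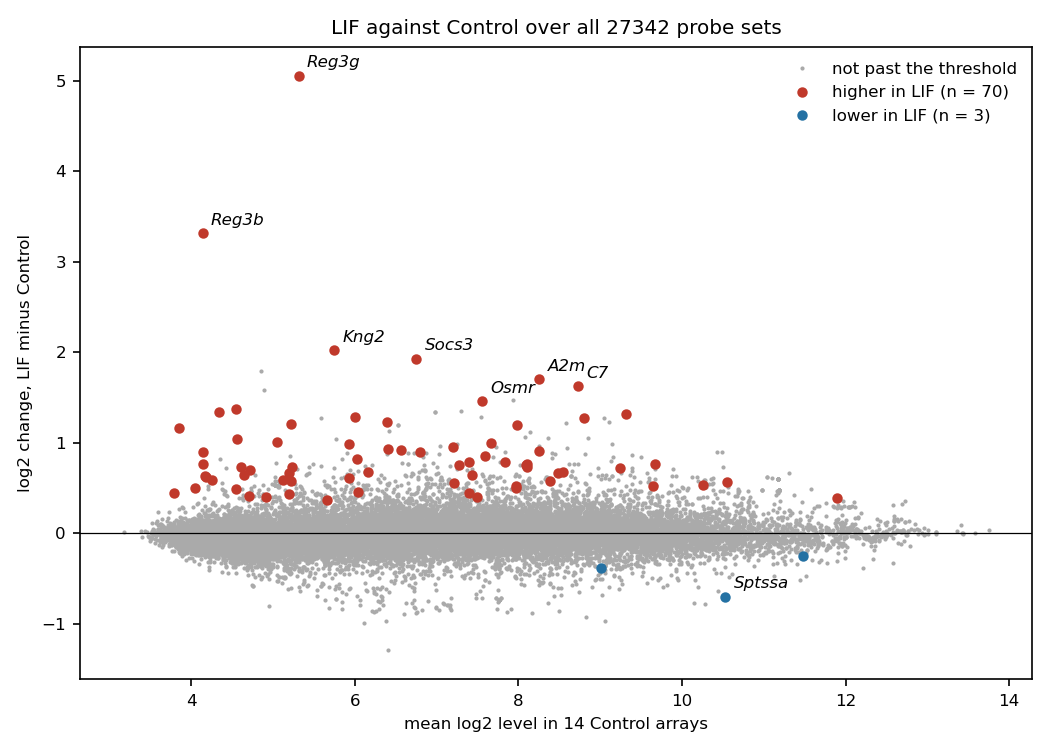
Each point is 1 of 27342 probe sets, with its mean log2 level in the 14 Control arrays on the x axis and the log2 change (LIF minus Control, fitted by limma) on the y axis. The 70 red points rose and the 3 blue points fell at an adjusted p under 0.05, and Reg3g and Reg3b stand highest, with changes of 5.06 and 3.31.

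The largest rises belonged to the Reg family, small secreted C-type lectins, several of which bind bacteria or act as tissue growth signals in gut and pancreas. Of 5 members measured, 4 rose and Reg4 did not pass the test, and the median log2 change of the 5 was 1.34, against -0.03 over all probe sets. Reg3g had log2 levels of 10.53, 10.80 and 9.78 in LIF samples 1 to 3, and 4.77 (lowest), 5.13 (median) and 6.74 (highest) in the Control samples. The lowest LIF sample was thus far above the highest Control sample, and the fitted log2 change was 5.06 ± 0.30 (SE; adjusted p = 1.0e-13, limma), a 33.2-fold rise. Reg3b was at 7.58, 8.34 and 6.44 with LIF and at 3.87 to 4.59 (median 4.12) in Controls, a log2 change of 3.31 ± 0.18 (adjusted p = 4.2e-14). Control levels of Reg3b were close to the bottom of the scale, at the 10.5th percentile of all probe sets, whereas LIF lifted it above the median of all levels, 5.98. Reg1a, first known from regenerating pancreatic islets, was at 5.81, 6.09 and 5.14 with LIF against 4.15 to 4.90 in Controls, a log2 change of 1.34 ± 0.14 (adjusted p = 1.7e-07). Reg3a was at 4.71, 5.68 and 4.68 against 3.68 to 4.14, a log2 change of 1.17 ± 0.12 (adjusted p = 9.1e-08), so that LIF sample 2 gave much of its size. None of the 4 overlapped with any Control sample, and each call held with any LIF sample left out. For each of them the exact two-sided permutation test over the 680 splits of 3 and 14 arrays gave p = 0.00147, the smallest it allows. Reg4 was at 3.89, 3.89 and 4.05 with LIF and at 3.83 to 4.40 in Controls, a log2 change of -0.09 ± 0.08 (adjusted p = 0.88). The Reg genes are similar in sequence, and how far a probe set of one reads the RNA of another was not tested.

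The 4 Reg genes that rose lie next to each other on rat chromosome 4 in the order Reg3b, Reg3a, Reg1a and Reg3g, with no other protein-coding gene between neighbours in the RefSeq annotation (GRCr8). Their promoter windows (250 bases before to 50 after the start of the gene, from RefSeq, 5′ to 3′ on the strand of the gene) are shown because the 4 genes rose together, with any match to TTCNNNGAA, the palindromic core bound by STAT factors, in capitals. The windows are chr4:112419526-112419825 on the plus strand, chr4:112430147-112430446 on the plus strand, chr4:112450216-112450515 on the plus strand and chr4:112484689-112484988 on the minus strand.
Reg3b: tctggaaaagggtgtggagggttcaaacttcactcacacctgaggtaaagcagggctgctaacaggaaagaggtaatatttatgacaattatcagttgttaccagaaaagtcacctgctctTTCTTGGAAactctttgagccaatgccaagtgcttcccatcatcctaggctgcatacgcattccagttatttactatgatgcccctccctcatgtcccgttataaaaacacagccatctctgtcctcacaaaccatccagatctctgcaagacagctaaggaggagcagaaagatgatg
Reg3a: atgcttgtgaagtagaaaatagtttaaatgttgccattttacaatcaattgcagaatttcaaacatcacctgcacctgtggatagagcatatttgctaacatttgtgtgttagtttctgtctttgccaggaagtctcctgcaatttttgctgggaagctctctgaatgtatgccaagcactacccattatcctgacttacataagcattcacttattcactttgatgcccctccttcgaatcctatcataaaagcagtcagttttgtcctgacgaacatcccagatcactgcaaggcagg
Reg1a: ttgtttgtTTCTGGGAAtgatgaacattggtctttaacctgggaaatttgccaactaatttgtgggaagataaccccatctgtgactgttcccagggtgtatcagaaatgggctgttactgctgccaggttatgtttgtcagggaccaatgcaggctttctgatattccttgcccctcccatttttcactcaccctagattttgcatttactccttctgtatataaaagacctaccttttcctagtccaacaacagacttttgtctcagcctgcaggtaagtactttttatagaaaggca
Reg3g: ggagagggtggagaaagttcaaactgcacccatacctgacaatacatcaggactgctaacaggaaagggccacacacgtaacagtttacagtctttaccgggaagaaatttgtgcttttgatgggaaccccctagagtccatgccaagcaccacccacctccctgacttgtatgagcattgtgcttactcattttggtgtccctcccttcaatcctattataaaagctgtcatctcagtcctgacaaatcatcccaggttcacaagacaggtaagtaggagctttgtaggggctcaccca
Reg3b held TTCTTGGAA starting 129 bases before the start site, and Reg1a held TTCTGGGAA starting 242 bases before it. The windows of Reg3a and Reg3g held no match, although Reg3g had the largest rise of all. The core reads the same on both strands and matches were counted once.

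The LIF receptor and its signalling chain changed at several steps. Of 7 measured cytokines that signal through gp130, none passed by limma and 0 had an unadjusted p under 0.05, and their log2 changes lay between -0.11 and 0.22. The ovary's own Lif was at 5.57, 5.16 and 4.94 with LIF and at 4.85 to 5.73 in Controls (log2 change 0.06 ± 0.17, adjusted p = 0.97). Of 13 measured receptors, kinases, phosphatases and STATs of the pathway, Osmr, Lifr and Stat3 rose, none fell, and 5 met wider criteria, those of the study with limma's unadjusted p in place of its t-test (p at most 0.05, ratio of linear means at least 1.2 or at most 0.83, linear difference at least 10), which 780 probe sets (2.85%) met in this direction and 1045 (3.82%) in either. With the methods' t-test the latter count was 790 on log2 and 807 on linear values. The paper's own list for LIF holds fewer than each of these counts, and the reason was not tested. Lifr was at 8.97, 8.80 and 8.75 with LIF and at 7.64 to 8.45 (median 8.10) in Controls, a log2 change of 0.74 ± 0.15 (adjusted p = 0.018, limma). The groups did not overlap. Osmr, which forms the oncostatin M receptor with gp130, was at 9.32, 9.21 and 8.51 against 6.87 to 8.83 (median 7.36), a log2 change of 1.46 ± 0.31 (adjusted p = 0.022). Here 1 Control sample lay above LIF sample 3. Neither call held in the LIF and Control arrays alone (adjusted p = 0.081 for Lifr and 0.070 for Osmr), or without LIF sample 1 (0.42 and 0.49) or sample 2 (0.11 and 0.21), and that of Lifr was also lost without sample 3 (0.054). Osmr and Lifr are neighbours on chromosome 2.

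Stat3 was at 10.45, 10.05 and 10.02 with LIF and at 9.33 to 10.09 (median 9.62) in Controls, a log2 change of 0.53 ± 0.12 (adjusted p = 0.046), and only LIF sample 1 lay above the Control range. The adjusted p of Stat3 was 1.0, 0.13 and 0.058 without LIF sample 1, 2 or 3, and 0.27 in the LIF and Control arrays alone. The common chain Il6st was at 10.58, 10.91 and 11.07 against 10.30 to 11.02 (log2 change 0.20 ± 0.14, adjusted p = 0.82). Jak1, the kinase most closely tied to gp130, was at 10.75, 10.82 and 10.65 against 10.41 to 10.97 (log2 change 0.00 ± 0.09, adjusted p = 1.0). Jak2 and the interleukin-6 receptor Il6r met the wider criteria without passing the test, with log2 changes of 0.46 ± 0.14 and 0.48 ± 0.14. The remaining members were Stat5b (0.18), Stat5a (0.09), Il11ra1 (0.07), the phosphatases Ptpn11 (-0.01) and Ptpn2 (-0.15), and Cntfr (-0.13), all given as log2 changes that did not pass. Jak3, a kinase of other cytokine receptors, rose by 0.46 ± 0.09 (adjusted p = 0.015), from 5.57 to 6.29 in Controls to 6.67, 6.52 and 6.30 with LIF, and had an adjusted p of 0.57 without LIF sample 1, 0.13 without sample 2 and 0.15 in the LIF and Control arrays alone.

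Among 23 measured feedback and target genes of Stat3, Socs3 and Tnfrsf1a rose, and 20 of the 23 had a log2 change above 0, with a median of 0.17. Socs3, the feedback inhibitor of gp130, was at 9.28, 8.56 and 8.20 with LIF and at 6.40 to 7.51 (median 6.74) in Controls, a log2 change of 1.93 ± 0.18 (adjusted p = 2.0e-08). The lowest LIF sample was above the highest Control sample and the call held without any 1 LIF sample. Its relatives Socs1, Socs2 and Cish had log2 changes of 0.21, 0.15 and 0.16 and did not pass. Tnfrsf1a, the main receptor of tumour necrosis factor, was at 9.14, 8.90 and 8.55 against 7.49 to 8.82 (log2 change 0.76 ± 0.17, adjusted p = 0.032), with LIF sample 3 inside the Control range. Its adjusted p was 0.78 without LIF sample 1, 0.21 without sample 2 and 0.15 in the LIF and Control arrays alone. The immediate early genes Junb and Ier3 met the wider criteria alone, with log2 changes of 0.69 ± 0.24 and 0.84 ± 0.31. Junb was at 7.43 in LIF sample 1 and at 6.26 and 6.22 in the other two, and the Controls reached 6.94. Of 18 feedback and early genes of the ERK pathway, which gp130 can also engage, none passed and 0 had an unadjusted p under 0.05, and log2 changes ran from -0.19 to 0.53.

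**Figure D2:**
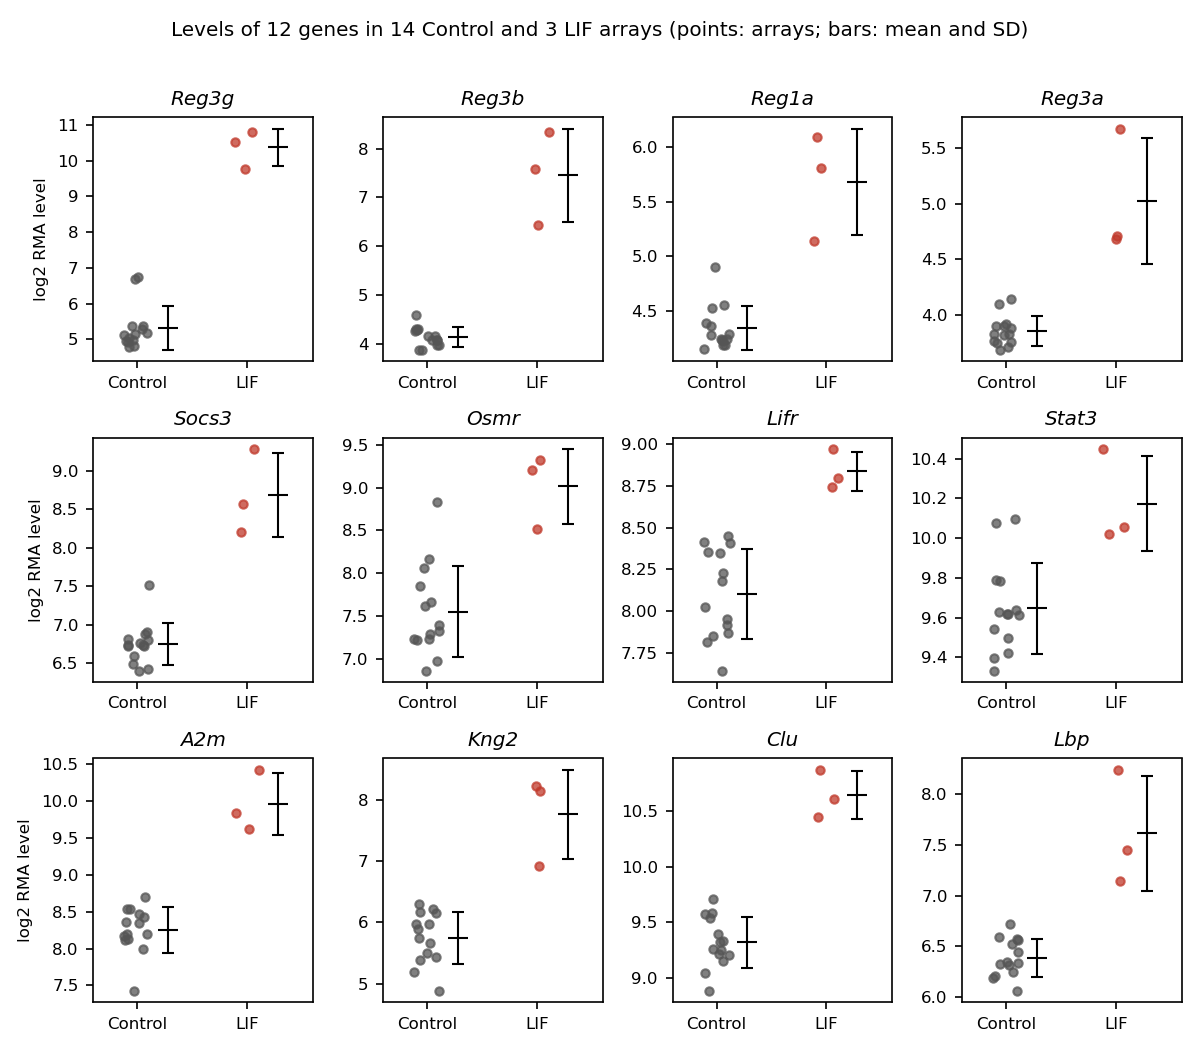
Each panel shows the deposited log2 level of 1 gene in the 14 Control arrays (grey points) and the 3 LIF arrays (red points), with bars for the group mean and SD. The LIF arrays lie above every Control array in Reg3g, Reg3b, Reg1a, Reg3a, Socs3, Lifr, A2m, Kng2, Clu and Lbp, and the groups overlap in Osmr and Stat3. Each panel has its own y axis.

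The acute-phase proteins, which the liver secretes during inflammation, were represented by 24 measured genes, of which 6 rose (A2m, Clu, Fgg, Lbp, Steap4 and Itih4) and none fell. Of the 24, 15 had a log2 change above 0, and the median was 0.16. A2m, a broad protease inhibitor and the classic acute-phase protein of the rat, was at 9.84, 10.43 and 9.62 with LIF and at 7.42 to 8.69 (median 8.27) in Controls, a log2 change of 1.71 ± 0.20 (adjusted p = 2.8e-06). Clu, a secreted chaperone, was at 10.87, 10.61 and 10.44 against 8.88 to 9.71 (median 9.29), a log2 change of 1.32 ± 0.12 (adjusted p = 2.0e-08). The groups did not overlap for either gene, and both calls held without any 1 LIF sample. Lbp, which carries bacterial lipopolysaccharide, was at 8.25, 7.45 and 7.15 against 6.06 to 6.72, a log2 change of 1.23 ± 0.21 (adjusted p = 0.0023), or adjusted p = 0.27 without LIF sample 1. Fgg, the gamma chain of fibrinogen, was at 7.51, 7.57 and 6.78 against 5.50 to 6.90 (median 5.96), a log2 change of 1.29 ± 0.23 (adjusted p = 0.0043). LIF sample 3 lay within the Control range of Fgg, and the adjusted p was 0.16 without LIF sample 1 and 0.11 without sample 2. The other fibrinogen chains, Fga and Fgb, had log2 changes of 0.06 and -0.05 and did not pass. Steap4, a metalloreductase, rose by 0.90 ± 0.19 (adjusted p = 0.025), and its LIF sample 3, at 7.11, was below the highest Control sample, at 7.26. The adjusted p of Steap4 was 0.66 without LIF sample 1, 0.31 without sample 2 and 0.059 in the LIF and Control arrays alone. Itih4, a plasma protein of the inter-alpha-trypsin inhibitor family, rose by 0.62 ± 0.08 (adjusted p = 1.8e-05) from a low level, with 5.02, 4.69 and 4.68 against 3.95 to 4.51.

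Serpina3n, an acute-phase inhibitor of serine proteases, had the fifth largest log2 change of the named genes without passing the test. It was at 6.95, 7.08 and 5.94 with LIF and had a Control median of 4.60, but 1 Control sample reached 7.48, and the log2 change was 1.79 ± 0.43 (adjusted p = 0.062). Lcn2, which withholds iron from bacteria, was at 10.45, 10.54 and 9.43 against 8.46 to 10.41 (log2 change 0.99 ± 0.35, adjusted p = 0.38). Timp1, an inhibitor of matrix metalloproteases, was at 11.70, 11.52 and 10.77 against 9.63 to 11.27 (log2 change 0.90 ± 0.26, adjusted p = 0.19). For each of these genes 1 or more Control samples lay above LIF sample 3. Other proteins that the liver makes were at low levels throughout: the mean log2 level of Alb, Ahsg, Apoh and Serpina1 was 4.33 to 4.41 in the LIF samples and 4.33 to 4.79 in the Control samples.

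Matches to TTCNNNGAA were sought in the promoter windows of all the named genes that rose. Of the 54 genes, 44 had a window in the table, and 6 of these (13.6%) held a match, beside 2382 of 27457 promoters (8.68%) in the whole table. Besides Reg3b and Reg1a these were Itih4 (TTCCCAGAA, 89 bases before the start), Steap4 (TTCCCGGAA, 66 bases before), Plppr1 (TTCCAGGAA, 158 bases before) and Amer1 (TTCCAAGAA, 235 bases before). The windows of both acute-phase genes are shown with the match in capitals, Itih4 at chr16:6086735-6087034 on the plus strand and Steap4 at chr4:27054720-27055019 on the minus strand (RefSeq, GRCr8).
Itih4: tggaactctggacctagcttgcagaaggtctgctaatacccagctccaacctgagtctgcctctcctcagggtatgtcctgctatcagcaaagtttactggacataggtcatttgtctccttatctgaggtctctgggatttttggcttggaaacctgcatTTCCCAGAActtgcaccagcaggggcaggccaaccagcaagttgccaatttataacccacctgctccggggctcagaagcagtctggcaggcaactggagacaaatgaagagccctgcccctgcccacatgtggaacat
Steap4: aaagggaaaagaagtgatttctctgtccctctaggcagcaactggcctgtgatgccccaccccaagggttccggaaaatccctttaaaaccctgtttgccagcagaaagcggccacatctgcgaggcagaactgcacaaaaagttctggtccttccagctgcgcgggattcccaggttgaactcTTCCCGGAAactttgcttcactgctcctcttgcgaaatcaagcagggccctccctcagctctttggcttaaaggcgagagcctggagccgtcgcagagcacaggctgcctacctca
The windows of Socs3, Osmr, Lifr, Kng1 and Kng2 held no match. That of Socs3 reaches into the protein-coding sequence, so it may not cover the promoter. Bases outside the windows were not searched, so no match in a window does not mean that the gene lacks the core. A match says only that these letters lie in the window.

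Both kininogens, the plasma precursors of bradykinin, rose, and they are neighbours on chromosome 11. Kng2 was at 8.22, 8.15 and 6.93 with LIF and at 4.87 to 6.30 (median 5.82) in Controls, a log2 change of 2.02 ± 0.26 (adjusted p = 1.7e-05). Kng1 was at 6.29, 6.15 and 5.32 against 4.02 to 4.98 (median 4.61), a log2 change of 1.38 ± 0.19 (adjusted p = 3.9e-05). In both, LIF sample 3 was lowest and still above every Control sample, and both calls held without any 1 LIF sample. The pair is similar in sequence, and cross-reading between their probe sets was not tested. Of the other 7 measured genes of the kinin system none passed: the bradykinin receptors Bdkrb1 and Bdkrb2 had log2 changes of -0.02 and 0.37, plasma kallikrein Klkb1 0.19, and the kinin-degrading enzymes Ace and Mme 0.40 and 0.31.

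Of 24 measured complement genes 1 rose. C7, which takes part in the membrane attack complex, was at 10.06, 10.75 and 10.27 with LIF and at 6.90 to 9.57 (median 8.82) in Controls, a log2 change of 1.62 ± 0.33 (adjusted p = 0.014). All LIF samples were above all Control samples, although the adjusted p was 0.094, 0.21 and 0.056 without LIF sample 1, 2 or 3, and 0.092 in the LIF and Control arrays alone. C1s, Serping1, Cfi and C1qb met the wider criteria, with log2 changes of 0.63, 0.62, 0.49 and 0.43, beside 2.85% of all probe sets in the direction of a rise. The partners of C7 in the complex, C6, C8a, C8b, C8g and C9, had log2 changes between -0.07 and 0.16. Of 23 coagulation and fibrinolysis genes none passed, and 1, the anticoagulant cofactor Pros1 (0.27), met the wider criteria.

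Receptors for inflammatory and prostaglandin signals rose next. Il1r1, the signalling receptor of interleukin-1, was at 10.27, 10.20 and 9.76 with LIF and at 8.29 to 9.64 (median 8.63) in Controls, a log2 change of 1.28 ± 0.24 (adjusted p = 0.0078), with no overlap. The adjusted p was 0.24 without LIF sample 1 and 0.11 without sample 2. It was the only 1 of 25 interleukin-1 and chemokine genes to pass, and Irak4, a kinase of the same pathway that was not on the list, rose by 0.37 ± 0.08 (adjusted p = 0.040), with an adjusted p of 0.50, 0.31 and 0.054 without LIF sample 1, 2 or 3 and 0.13 in the LIF and Control arrays alone. Ptger3, a receptor of prostaglandin E2, was at 5.84, 5.46 and 5.50 against 4.33 to 4.91 (median 4.52), a log2 change of 1.05 ± 0.09 (adjusted p = 1.1e-08), and its call held without any 1 LIF sample. Of 18 measured prostaglandin genes it alone passed, and the synthase Ptgs2 had a log2 change of 0.07. Besides Tnfrsf1a, Tnfrsf19 and Tnfrsf11b of the tumour necrosis factor receptor family rose, by 0.92 ± 0.17 (adjusted p = 0.0070) and 0.91 ± 0.20 (adjusted p = 0.027). The adjusted p of Tnfrsf19 was 0.50 without LIF sample 1, 0.072 without sample 2 and 0.059 in the LIF and Control arrays alone. Tnfrsf11b is osteoprotegerin, a soluble decoy receptor. It was at 8.59 in LIF sample 1 and at 9.61 and 9.27 in the others, against 7.51 to 8.65, so that here sample 1 was the one within the Control range, and the adjusted p was 0.0092 without it, 0.43 without sample 2, 0.17 without sample 3 and 0.13 in the LIF and Control arrays alone.

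Other genes with large rises served varied functions. C1qtnf6, a secreted protein with a complement C1q-like domain, was at 9.39, 9.12 and 9.07 with LIF and at 7.71 to 8.31 (median 8.02) in Controls, a 2.30-fold rise (adjusted p = 5.0e-07) that held without any 1 LIF sample. Mtnr1a, a melatonin receptor, was at 6.95, 6.21 and 6.16 against 4.72 to 5.91, a log2 change of 1.21 ± 0.19 (adjusted p = 0.00094, and 0.14 without LIF sample 1). Plppr1, a membrane protein of neurons, was at 4.63, 5.47 and 5.03 against 3.89 to 4.43, a log2 change of 0.90 ± 0.11 (adjusted p = 6.3e-06). None of these overlapped with the Controls. Prg4 (lubricin, a joint lubricant), Trim2 (a ubiquitin ligase) and Cpne8 (a copine) rose by 1.00 ± 0.19, 0.95 ± 0.15 and 0.85 ± 0.16. Without LIF sample 1 the adjusted p was 0.27 for Prg4 and 0.052 for Trim2, and without sample 2 it was 0.19 for Cpne8. In the LIF and Control arrays alone it was 0.11 for Prg4 and 0.099 for Cpne8.

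The epithelial sodium channel subunits Scnn1b and Scnn1g, neighbours on chromosome 1, rose by 0.98 ± 0.21 (adjusted p = 0.021) and 0.70 ± 0.12 (adjusted p = 0.0025). Scnn1b was at 7.06, 7.05 and 6.64 with LIF, and the highest Control sample was level with LIF sample 3 at 6.64. Scnn1g was at 5.69, 5.10 and 5.48 against 4.44 to 5.11. Without LIF sample 1 the adjusted p was 0.42 for Scnn1b and 0.23 for Scnn1g, and that of Scnn1b was 0.21 without sample 2 and 0.11 in the LIF and Control arrays alone. Hgf, a growth factor of the mesenchyme, was at 5.07, 5.60 and 5.35 against 4.29 to 4.85, a log2 change of 0.73 ± 0.14 (adjusted p = 0.0080), without overlap, and had an adjusted p of 0.21 without LIF sample 2 and 0.054 without sample 3. Sbno2, a co-repressor in cytokine signalling, rose by 0.78 ± 0.14 (adjusted p = 0.0028, and 0.28 without LIF sample 1). Fam3d rested on 1 sample, at 5.80, 4.55 and 4.39 against 3.89 to 4.50, and its adjusted p was 1.0 without LIF sample 1 and 0.20 in the LIF and Control arrays alone. The smallest rises included the lysosomal protease Ctsb, at 12.34, 12.27 and 12.23 against 11.72 to 12.12, a log2 change of 0.39 ± 0.07 (adjusted p = 0.0055, but 0.19 without LIF sample 1 and 0.057 without sample 2).

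Of 15 measured genes of metal handling, 8 met the wider criteria in the direction of a rise, beside 2.85% of all probe sets. Lcn2 and Cp among them were also on the list of acute-phase proteins. The metal list was written with earlier results of these arrays known, so nothing is read from its count. Only the zinc and iron importer Slc39a14 passed the test, at 7.92, 7.69 and 7.71 against 6.90 to 7.54 (log2 change 0.56 ± 0.12, adjusted p = 0.025). That call was lost without LIF sample 1, 2 or 3 (adjusted p = 0.60, 0.11 and 0.074) and in the LIF and Control arrays alone (0.067). The metal-binding proteins Mt2A and Mt1 had log2 changes of 0.84 ± 0.31 and 0.61 ± 0.25. Mt2A was at 11.17, 10.28 and 9.58 with LIF against 8.79 to 10.42, so that only LIF sample 1 was above the Controls. LIF minus the KITLG array of the same number was 0.47, 0.38 and -0.42 log2 units for Mt2A. For Mt1 it was 0.29, 0.27 and -0.36. Slc39a8, another zinc importer, had a log2 change of 0.75 ± 0.23 (adjusted p = 0.25). The zinc transporter Slc39a1, not on the list, rose by 0.54 ± 0.11 (adjusted p = 0.012), with an adjusted p of 0.41 without LIF sample 1, 0.087 without sample 2 and 0.052 in the LIF and Control arrays alone.

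Several lists of secreted regulators had members that met the wider criteria without passing the test, beside 2.85% of all probe sets in the direction of a rise. Of 14 genes of the insulin-like growth factor system these were the binding protein Igfbp4, the growth factor Igf2 and Pappa, a protease that cleaves Igfbp4, with log2 changes of 0.83, 0.45 and 0.46. Igfbp4 was at 10.03 in LIF sample 1 and at 8.87 and 8.86 in the others, against 8.06 to 9.15 in Controls, so that only sample 1 was above the Control range. Of 16 matrix proteases and inhibitors Timp1, Adamts4 (0.56), Mmp19 (0.44) and Adamts1 (0.32) met them, and of 24 adipocytokine signalling genes Npy (0.70), an appetite neuropeptide, and Acsl4 (0.40), a fatty acid ligase, did. Of 25 ligands and receptors of the added growth factors Lifr rose, and the GDNF receptor Gfra1 (0.55) met the wider criteria alone. None of 15 serine protease inhibitors, 5 CCN family genes or 23 ribosomal protein genes passed. Of the ribosomal genes 8 had an unadjusted p under 0.05, beside 7.25% of all probe sets, with log2 changes from -0.33 for Rps3a to 0.32 for Rplp1.

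Only 3 probe sets fell, and 1 of them had a symbol. Sptssa, a small subunit of serine palmitoyltransferase, an enzyme of sphingolipid synthesis, was at 9.70, 9.88 and 9.90 with LIF and at 10.22 to 11.11 (median 10.51) in Controls, a log2 change of -0.70 ± 0.13 (adjusted p = 0.0078). All LIF samples lay below all Control samples, as they did for the other 2 probe sets. Over the whole array 52 probe sets (0.19%) showed that pattern. The call was lost without LIF sample 1 (adjusted p = 0.26) and without sample 2 (adjusted p = 0.062). At the wider criteria 265 probe sets (0.969%) were lower.

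The genes that define the cells of the ovary showed few changes. Of 14 measured oocyte genes none passed by limma and 0 had an unadjusted p under 0.05, but 12 had a log2 change below 0 and the median was -0.21, the lowest of the 34 lists, against -0.03 over all probe sets. LIF sample 1 stood apart here: the mean of the 4 oocyte markers was 8.44 in it. It was 9.64 and 9.72 in samples 2 and 3, against a Control median of 9.66. Of 23 granulosa and gonadal genes, Wnt4 alone rose, at 9.07, 8.66 and 8.12 against 7.34 to 8.30 (log2 change 0.79 ± 0.16, adjusted p = 0.016). Wnt4 is a signal that directs ovarian development, and its adjusted p was 0.80 without LIF sample 1, 0.14 without sample 2 and 0.092 in the LIF and Control arrays alone. Nr5a2, Inha and Amh, genes of granulosa cells, had log2 changes of -0.86, -0.57 and -0.50 and did not pass. None of 14 steroid synthesis genes, 17 collagen and matrix genes, 15 surface epithelium genes, 16 proliferation genes or 20 cell death genes passed, with 1, 1, 1, 2 and 2 of them at an unadjusted p under 0.05 in that order. Likewise none of 18 meiotic genes, 13 cholesterol synthesis enzymes, 10 endothelial genes or 10 muscle and pericyte genes passed, and 0 of them had an unadjusted p under 0.05. Of 10 mast cell genes 2 and of 7 red cell genes 1 had such a p, beside 7.25% of all probe sets, and none passed. Among the proliferation genes 14 of 16 had a log2 change below 0, with a median of -0.11. Of 13 macrophage genes none passed and 0 had an unadjusted p under 0.05, 12 were above 0 and the median log2 change was 0.21. Again LIF sample 1 stood apart: the mean of the 4 macrophage markers was 7.90 in it. It was 6.78 and 6.42 in samples 2 and 3, against a Control median of 6.81. The part of macrophage content in the results was not tested.

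Interferon-response genes gave no call either. Of 18 measured none passed by limma, 0 had an unadjusted p under 0.05, and the median log2 change was -0.17. Mx1, an antiviral protein named here after its value was seen, had a log2 change of -1.29, the largest fall of any probe set, but did not pass the test. Ccn2 (connective tissue growth factor), which the study followed up, was at 6.66, 7.61 and 7.74 with LIF and at 6.61 to 8.37 (median 7.81) in Controls, a log2 change of -0.30 ± 0.36 (adjusted p = 0.90). The paper lists this gene as lowered by LIF at its own criteria, which use an unadjusted t-test. Here Ccn2 did not meet the wider criteria, which use limma's p, and each LIF sample lay within the Control range. The reason for the difference from the paper was not tested. Over the 34 gene lists, 22 of 523 different measured genes rose and none fell, and 11 lists had a member that changed. The 22 make up 4.21% of the list genes, beside 0.256% of all probe sets, but the lists were written with earlier results of these arrays known, and nothing is read from that difference.

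**Figure D3:**
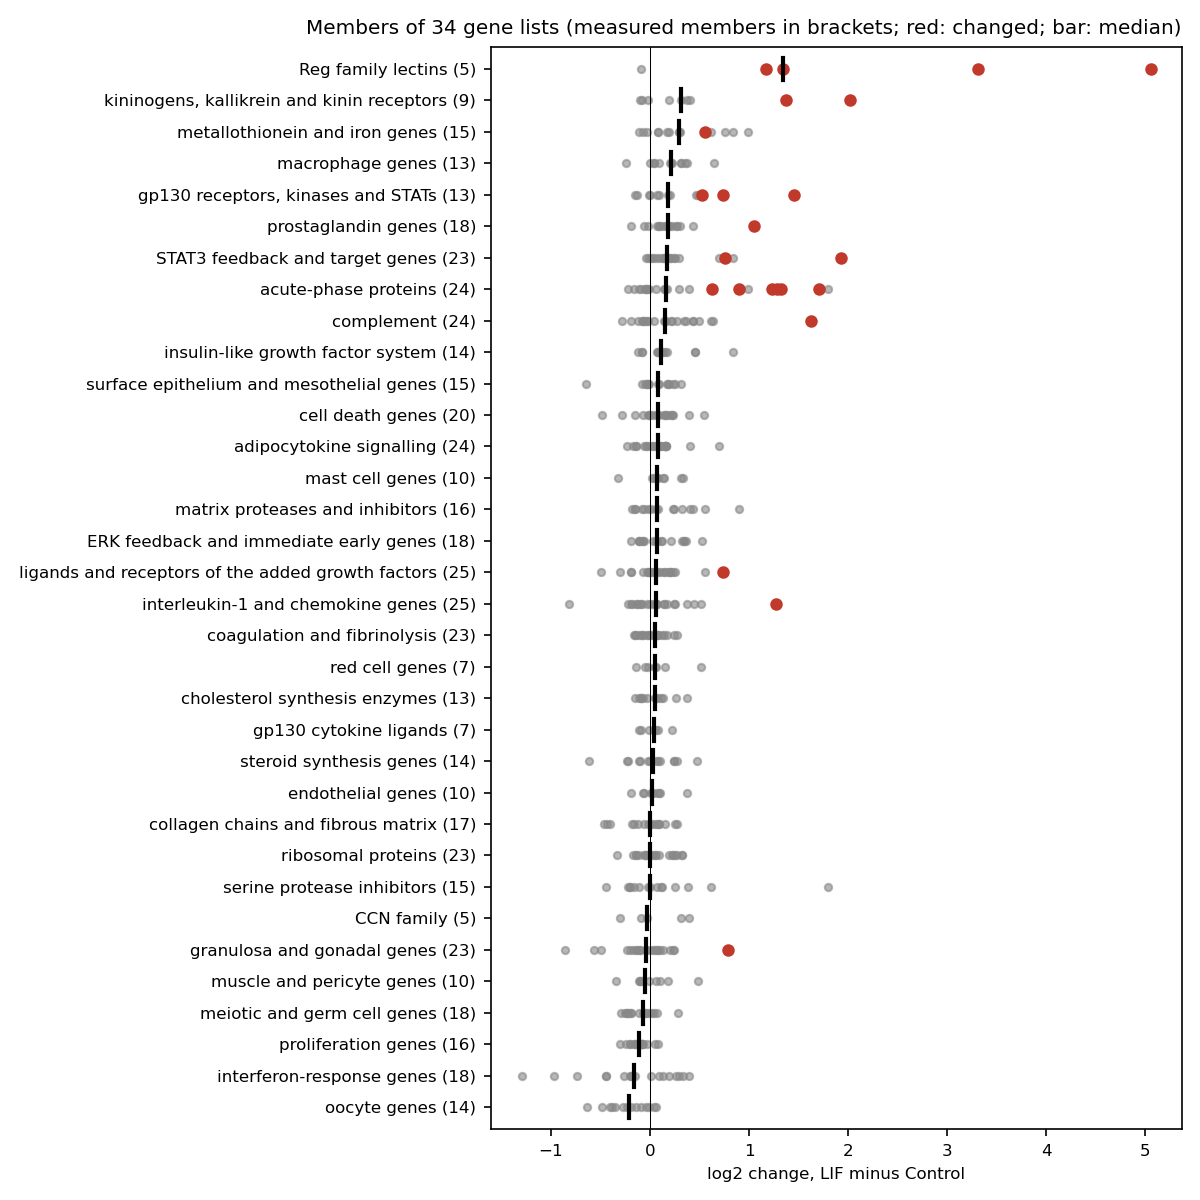
Each row is 1 of 34 gene lists, with the number of measured members in brackets, and each point is the log2 change (LIF minus Control) of 1 member. Red points passed the test and black bars mark the list medians, which run from -0.21 for oocyte genes to 1.34 for Reg family lectins.

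Whether these levels set LIF apart from other growth factors was tested by a contrast of LIF with the mean of the 7 others. The difference uses no Control array, but its spread was estimated from all 38 arrays. By limma, 45 probe sets (0.165%) were higher with LIF than with the other factors and 0 were lower, although 606 were lower at an unadjusted p under 0.05 and 2, 3 and 4 were called lower with a replicate block, in the growth factor arrays alone and with array weights. The growth factor arrays alone gave 59 probe sets, 56 higher and 3 lower, of which 38 were shared with the fit of all 38 arrays. Of the 70 that rose against Controls, 42 were also above the other factors, a count in which both comparisons use the same LIF arrays. Reg3g averaged 4.88 to 5.94 over the 7 other factors, with its highest array at 6.61, and the LIF difference was 5.09 ± 0.29 (adjusted p = 3.4e-14). Socs3 differed by 1.91 (adjusted p = 1.1e-08), Kng2 by 2.09 (adjusted p = 5.3e-06) and A2m by 1.80 (adjusted p = 4.7e-07). Taken singly, LIF differed from AMH in 0.0731% of probe sets, from BMP4 in 0.0658%, from FGF2 in 0.187%, from FGF7 in 0.0731%, from GDNF in 3.79%, from KITLG in 0.0512% and from PDGFab in 0.0695%. The genes that differed from each of the 7 were Reg3g, Reg3b, Reg1a, Reg3a, Socs3, Kng2, A2m, Clu, Ptger3, Plppr1 and Itih4. With same-numbered LIF and KITLG arrays as a block, 7 of these 11 did not pass against KITLG: Reg3b (adjusted p = 0.059), Kng2 (0.067), Ptger3 (0.067), Reg3a (0.13), Reg1a (0.15), Itih4 (0.15) and Plppr1 (0.25). In 20 of the 70 probe sets the 3 LIF arrays lay above all the other 35 arrays of the set. The 70 were chosen by the same LIF arrays and the share over all probe sets was not counted, so nothing is read from the 20.

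For several genes that rose against the Controls the difference from the other factors was smaller. C7 averaged 9.83 with PDGFab, and LIF exceeded the mean of the other factors by 1.08 (adjusted p = 0.37). Il1r1 averaged 10.13 with FGF2, where 1 array reached 11.08, although the difference from the mean of all 7 passed (1.07, adjusted p = 0.046). Scamp4 differed by 0.03 (adjusted p = 0.99) and averaged 8.67 with FGF2, and Tmem147 by 0.31 (adjusted p = 0.98) with 8.07 under FGF2. Stat3 differed from the other factors by 0.43 (adjusted p = 0.26), Hgf by 0.50 (adjusted p = 0.25) and Sptssa by -0.16 (adjusted p = 0.98). Lifr (0.68) and Osmr (1.37) passed narrowly, each with an adjusted p of 0.046. The fall of Sptssa was therefore not shown to differ from the level under the other factors.

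**Figure D4:**
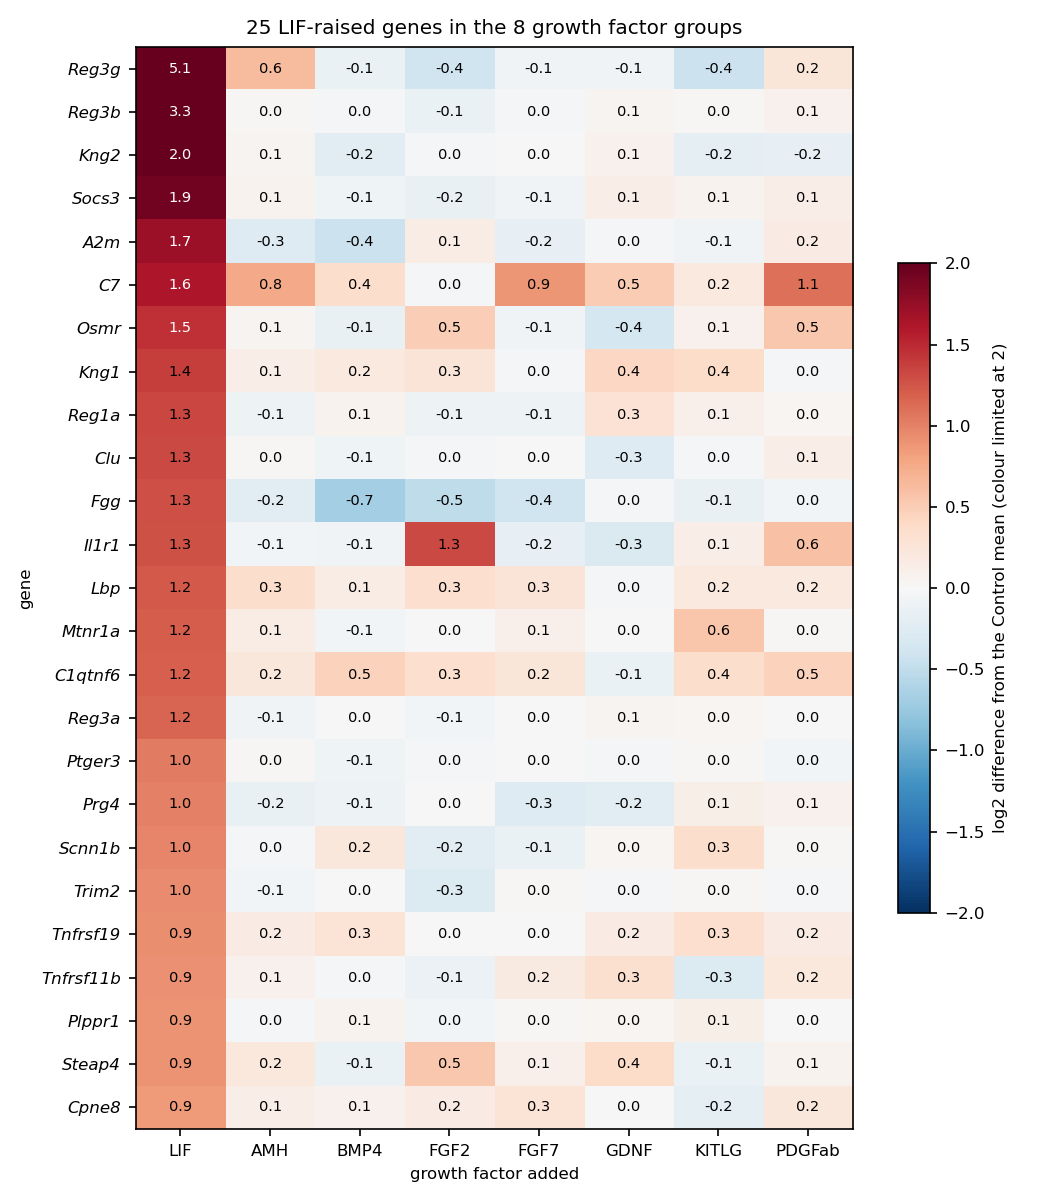
Rows are the 25 named genes with the largest rises, columns are the 8 growth factors (3 arrays each), and each cell gives the difference of the group mean from the mean of the 14 Control arrays on the log2 scale. LIF is the highest column in every row except Il1r1, which is as high with FGF2 (1.3), and C7 is also high with PDGFab (1.1).

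The LIF arrays resembled the KITLG arrays of the same number. The deviations of LIF arrays 1, 2 and 3 from the LIF mean correlated with those of KITLG arrays 1, 2 and 3 from their own mean at r = 0.72, 0.52 and 0.55 over probe sets, and the 6 pairs of unlike number gave -0.53 to 0.19. KITLG was picked for this from all the other arrays, and probe sets are not independent replicates. Kit ligand is a growth factor that oocytes answer through the receptor Kit. The labels do not say what a number stands for, and a shared culture day was not tested. Differences within the 3 same-numbered pairs were therefore also taken, which use no Control array.

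With the number as a block in the 6 arrays, 5 probe sets (0.0183%) were higher with LIF than with KITLG and 0 were lower at an adjusted p under 0.05 (1620 were lower at an unadjusted p under 0.05), whereas the fit of all 38 arrays called 14 (0.0512%) and the 6 arrays without the block called 1 (0.00366%). Reg3g was higher than in its KITLG partner by 5.62, 5.84 and 5.01 log2 units (mean 5.49 ± 0.15 SE, adjusted p = 0.00019, limma). Socs3 was higher by 1.85, 1.98 and 1.73 (mean 1.86 ± 0.08, adjusted p = 0.0020). A2m was higher by 1.88, 2.06 and 1.39 (adjusted p = 0.029) and Clu by 1.50, 1.48 and 1.06 (adjusted p = 0.037). The remaining call was Plcxd3, named after its value was seen, which was higher by 1.33, 1.42 and 1.46 (adjusted p = 0.0044) and had a log2 change of 0.73 against the Controls that did not pass (adjusted p = 0.82).

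Other genes that had risen missed the threshold in these 3 pairs. Reg3b was higher by 3.46, 4.14 and 2.29 (adjusted p = 0.059), Kng2 by 2.58, 2.56 and 1.46 (adjusted p = 0.067) and Osmr by 1.26, 1.90 and 0.94 (adjusted p = 0.085). Il1r1, by 0.95, 1.49 and 1.01, and Ptger3, by 1.32, 0.88 and 0.86, each had an adjusted p of 0.067. Lifr was higher by 1.12, 0.53 and 0.41 (adjusted p = 0.21). All of these were higher with LIF in 3 of 3 pairs, as were 65 of the 70 probe sets that rose and 3751 (13.7%) of all probe sets. These genes were chosen for high levels in the same LIF arrays, so nothing is read from the shared direction. The rises that changed sign between pairs included Tmem147, at 0.11, 0.28 and -0.38.

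**Figure D5:**
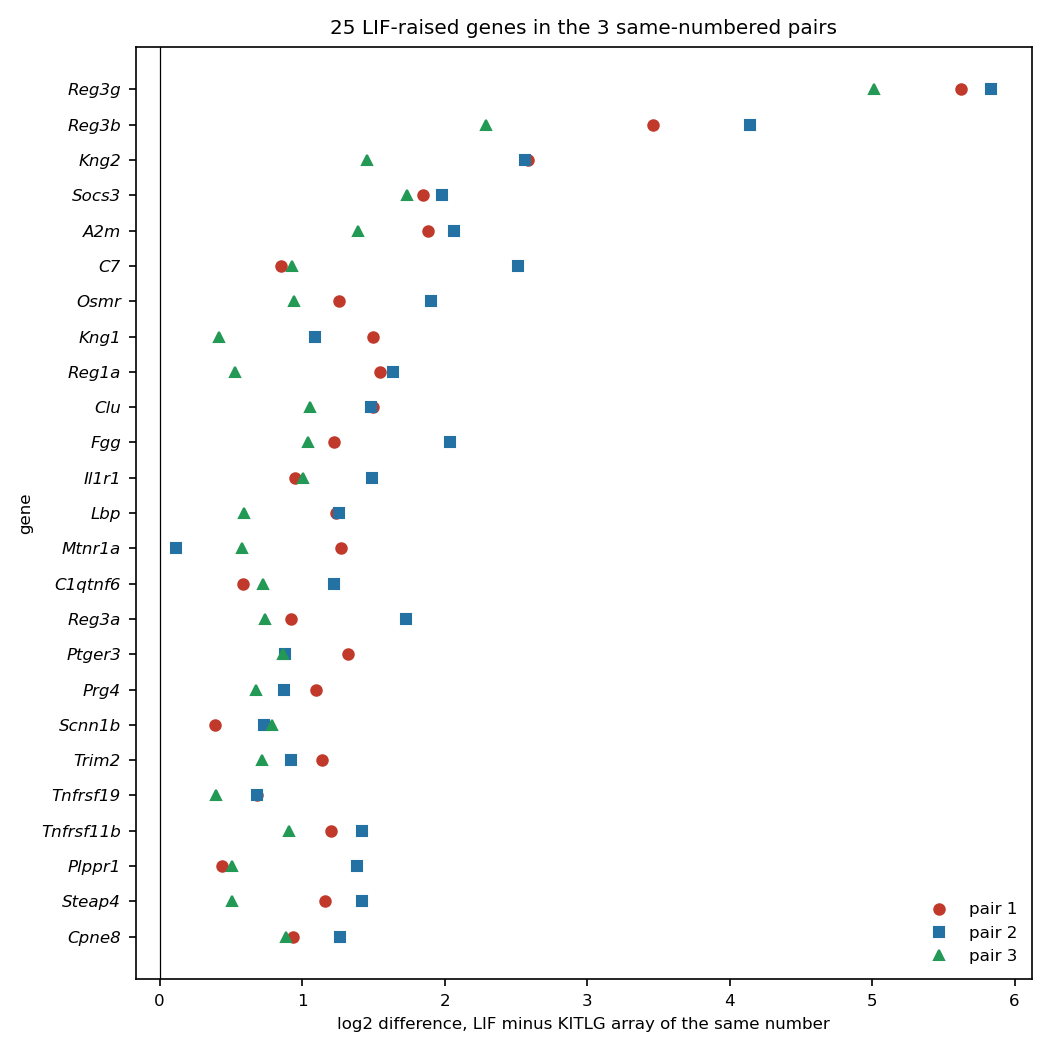
For the 25 named genes with the largest rises, the points give the log2 difference between the LIF array and the KITLG array of the same number (circle, pair 1; square, pair 2; triangle, pair 3). All points lie to the right of 0, from 0.12 for Mtnr1a in pair 2 to 5.84 for Reg3g in pair 2, and pair 3 is often the lowest. The genes were chosen for high levels in the same LIF arrays.

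The 3 LIF samples differed in how far they moved. Over the 70 probe sets that rose, the median difference from the Control mean was 0.90 in LIF sample 1, 0.83 in sample 2 and 0.54 in sample 3. Sample 1 was the highest in 46 of the 70 and sample 3 in 2, and sample 3 was the lowest in 53. Reg3b spanned 6.44 to 8.34 and Kng2 6.93 to 8.22 among the LIF samples, with sample 3 lowest in each, whereas Kif1a (5.64, 5.64 and 5.63) and Mpi (7.86, 7.85 and 7.82), both of which rose by 0.44, were nearly level. The calls of Kif1a and Mpi were lost without LIF sample 1 (adjusted p = 0.14 and 0.20) and without sample 2 (0.083 and 0.11). In Tnfrsf11b and Olfml3 sample 3 was not the lowest.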

How the data were processed

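Whole-ovary RNA was measured on Affymetrix rat gene arrays. The authors read the scans in Partek by RMA with an adjustment for probe GC content, 38 arrays together, and deposited log2 expression levels, which were used here without further normalization. The 6 arrays of the separately preprocessed CTGF set were not used. Groups came from the sample titles. In the annotation 15097 probe sets had 1 symbol, 323 had several and 11922 had none, and a gene with several probe sets was read from the brightest. No detection call was used, so low levels are hard to tell from background.

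All 38 arrays were fitted together by lmFit and eBayes of limma 3.58.1 (R 4.3.3), with Benjamini-Hochberg adjustment across the 27342 probe sets and a threshold of 0.05. Single genes also had an exact two-sided permutation test over 680 splits. The named genes were the 25 largest rises and up to 12 falls with a symbol, the list members that passed or met the study criteria with limma's p (at most 4 of the latter a list), the pathway's receptors, kinases and STATs, Ccn2, and genes that differed from the other factors. The members, the 34 lists and the tests were chosen with earlier results of these data known, and the comparison with KITLG pairs was added after the arrays were compared. The replicate numbers matched LIF with Control arrays for number 1 only (r = 0.69, -0.08 and 0.03 between deviations of same-numbered arrays). Control 1 was the nearest Control to LIF sample 1, whereas Controls 4 and 8 were nearest to LIF samples 2 and 3 (r = 0.43 and 0.39). The steps were tested on simulated data. Alternatives were the methods' t-test, LIF and Control arrays alone, a replicate block, array weights, a variance trend, other scaling, a filter on dim probe sets and samples left out. Promoters were taken from RefSeq (GRCr8). Python 3.11.15 with pandas 2.3.3 was used for the tables. The number of arrays limits the precision.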

Additional observations from a re-analysis of the deposited data

How the results depend on the processing

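The count of 73 changed probe sets was 31 in a fit of the LIF and Control arrays alone, 40 with the replicate block, 19 and 42 by the methods' t-test on log2 and linear values after Benjamini-Hochberg adjustment, and 240 with array weights. With 1 sample left out it ran from 19 to 93. Other settings gave 63 to 88. The 1045 probe sets at the study criteria with limma's p were 790 and 807 with the t-test's p on log2 and linear values, and ran from 575 to 1494 with 1 LIF sample left out. Each of these counts is above that of the paper's own list for LIF. The 45 probe sets above the other factors were 69 with the replicate block, 88 with array weights and 22 to 41 with 1 LIF sample left out. Of the named genes, 55 passed, against 26 with LIF and Control arrays alone, 29 with the replicate block, 17 and 32 by the t-test on log2 and linear values, and 18 to 56 with 1 sample left out. The 22 list genes became 14 with LIF and Control arrays alone, 12 by the t-test on log2 values, 34 with array weights and 11 to 25 with 1 sample left out, and stayed at 22 when any probe set of a gene could count, a setting chosen after seeing the data. The 14 probe sets that differed from KITLG were 5 with the replicate block and 1 in the same 6 arrays without it.

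The block of LIF and Control numbers leaves Controls 1 to 3 in that comparison. The sign of small log2 changes that never passed turned with the replicate block (Stat5a -0.083, Il11ra1 -0.024, Lif -0.0001, Ptpn11 0.35, Ccn2 0.16), with array weights (Il11ra1 -0.018, Jak1 -0.018), on linear values (Jak1 -0.0031), with quantile normalization (Jak1 -0.028), and without Controls 12 to 14 (Stat5a -0.0066, Il11ra1 -0.018, Ptpn11 0.0020). With 1 sample left out, Il11ra1 ran from -0.017 to 0.13, Lif from -0.11 to 0.20, Jak1 from -0.037 to 0.047, Ptpn11 from -0.17 to 0.18 and Ccn2 from -0.51 to 0.035. The causes were not tested. Rises of probe sets near the bottom of the scale are limited by signal over background, and 66 probe sets changed without the dimmest 25%.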
